A study of Rattus norvegicus with 4 samples.

Results

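The Lenti-AS-only regions were stretches of open chromatin that carried a peak in both libraries of cells expressing the Egr2 antisense RNA and in neither library of control cells, once all 4 peak lists had been made equally long. Each list was reduced to its 35646 peaks with the highest −log10 p, which is the length of the shortest list, and peaks that shared at least 1 bp were merged across the lists. On chromosomes 1 to 20 this gave 43589 merged regions, and 1245 of them (2.86%) were Lenti-AS-only. Because the lists themselves chose these regions, their presence in one group and absence from the other is a description, and no test was made of it.

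Assay for transposase-accessible chromatin with sequencing (ATAC-seq) marks open chromatin, since the Tn5 transposase inserts its adapters mainly into DNA that nucleosomes leave free. Promoters and enhancers in use are usually open in this sense, and enhancers often lie in groups along a chromosome. Schwann cells are the glia that myelinate peripheral axons. Egr2, also called Krox20, is the transcription factor that drives their myelinating program, and C-JUN, a member of the AP-1 family, drives their repair program after nerve injury. The Egr2 antisense RNA is transcribed from the Egr2 promoter in the opposite direction and is known to repress Egr2.

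All 4 libraries came from primary rat Schwann cells of sciatic nerve, which were grown in serum with forskolin and heregulin-β1, infected for 48 h, and used at 100000 cells per library. The Lenti-AS group (n = 2) received a lentivirus that overexpressed the Egr2 antisense RNA from the vector pLVX-DsRed-Express2-N1, and the Lenti-GFP group (n = 2) received virus from pLVX-AcGFP1-N1, which carries GFP. Antisense RNA and reporter protein thus changed together between the groups, and their parts cannot be told apart. The labels call each library a biological replicate but do not say what a shared replicate number stands for. The question was which chromatin opens with the antisense RNA, and the peak lists of the individual libraries are the data used here.

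The libraries were unequal. Before the lists were shortened they held 54289 and 35646 peaks for Lenti-GFP replicates 1 and 2, and 43312 and 46125 peaks for Lenti-AS replicates 1 and 2. Peak lists hold no read totals, so depth is known only through the lowest local background the peak caller used, which rises with the number of reads. This floor was 4.99 and 1.98 for the Lenti-GFP replicates and 2.09 and 2.80 for the Lenti-AS replicates. The summit pileup of the 26789 regions found in all 4 lists, which is the number of overlapping reads at the highest point of a peak, had a median of 17.6, 23.7, 30.1 and 24.6 times the floor in those 4 libraries in turn. It was 27.3 ± 3.87 in the Lenti-AS group and 20.7 ± 4.30 in the Lenti-GFP group (SD, n = 2 each), and Lenti-GFP replicate 1 had both the highest floor and the lowest signal over it. The part of depth and signal in the results that follow was not tested.

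Shortening the lists set unequal limits for absence. The weakest peak kept had a −log10 p of 13.4 and 5.22 for Lenti-GFP replicates 1 and 2, and of 10.7 and 11.3 for the Lenti-AS replicates. A member therefore lacked any deposited peak in Lenti-GFP replicate 2, whose list was the shortest and lost no peaks. In Lenti-GFP replicate 1 a member could still hold a peak among the 18643 that were removed. It did so in 1001 of 1245 members (80.4%), and the other 244 (19.6%) had no peak in either Lenti-GFP list as deposited. The data thus go against reading all members as closed in control cells, and they are called Lenti-AS-only at equal list length.

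Regions found in only 2 of the 4 lists were not particular to the treatment split. Of 4890 such regions, 1245 held both Lenti-AS libraries and 1113 held both Lenti-GFP libraries. The 4 pairs made of 1 library from each group held 457 to 827 regions each. Both within-group pairs were thus larger than every mixed pair, with the largest mixed pair being Lenti-GFP replicate 1 with Lenti-AS replicate 2. The Lenti-GFP-only regions also had peaks below the limit in the other group, in 857 of 1113 (77.0%), with 496 seen in the first Lenti-AS library and 789 in the second, some in both. Among mixed pairs this share ranged from 45.2% to 96.7%. A further 12 Lenti-AS-only regions lay on the X chromosome and were not members.

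**Figure D1:**
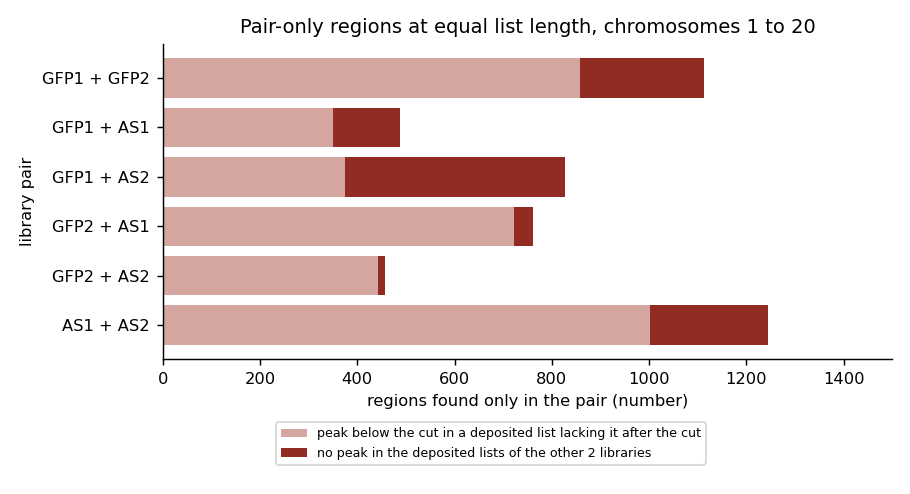
Number of merged regions on chromosomes 1 to 20 (horizontal axis) found in only the 2 libraries named on the vertical axis (GFP, Lenti-GFP; AS, Lenti-AS; 1 and 2, replicates), split by whether a library lacking the region after shortening held a peak below its limit there. The Lenti-AS pair is the longest bar with 1245 regions, of which 244 had no peak in the deposited lists of the other group.

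The members were weak peaks in both Lenti-AS libraries. Their −log10 p ran from 10.7 to 39.3 with a median of 13.8 in Lenti-AS replicate 1, and from 11.3 to 29.1 with a median of 14.0 in Lenti-AS replicate 2. Fold enrichment over local background had medians of 4.93 and 4.53, and the summit pileup had medians of 31 and 36 reads. Ranked within its own list, where 0 is the weakest kept peak and 100 the strongest, the median member stood at percentile 17.4 in replicate 1 and 15.6 in replicate 2. The mean percentile over both libraries had a median of 16.8, lay under 25 in 965 members (77.5%) and passed 50 in 4. Both lists placed only 2 members above their middle. The Lenti-GFP-only regions had a median of 17.1 and the mixed pairs 13.8 to 15.7, so low rank was shared by all regions found in only 2 lists.

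Agreement on rank between the Lenti-AS libraries was loose among members. Spearman's rho of −log10 p between the replicates was 0.257 across the 1245 members and 0.928 across the regions of all 4 lists. Regions are not independent replicates and the members span a narrower range of −log10 p, so both values are descriptions. Replicate 1 had the higher −log10 p in 590 members (47.4%).

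**Figure D2:**
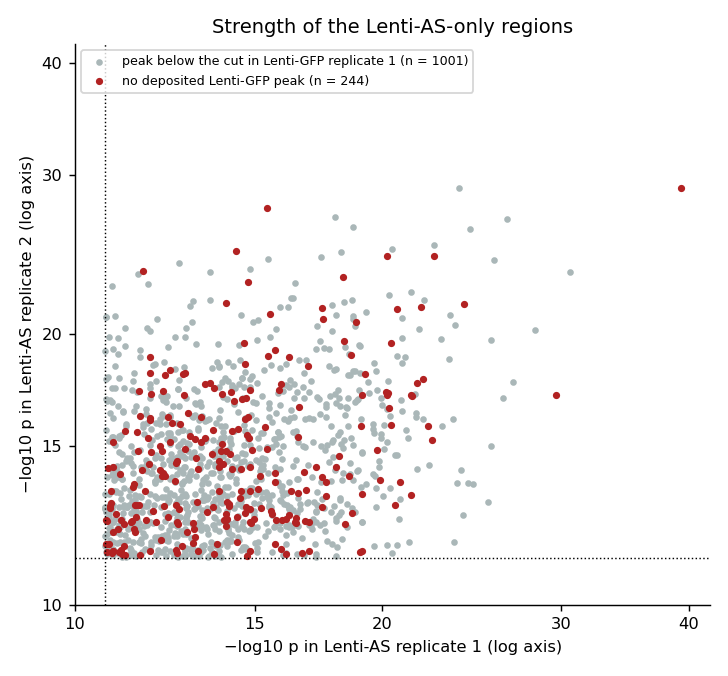
−log10 p of each of the 1245 Lenti-AS-only regions in Lenti-AS replicate 1 (horizontal, log axis) and replicate 2 (vertical, log axis), with dotted lines at the weakest peak kept in each list. Most points crowd into the corner above the limits. Regions without a deposited Lenti-GFP peak (244) lie mostly among those with a peak below the limit in Lenti-GFP replicate 1 (1001). Along the horizontal axis the 244 reach 39.3 and the 1001 reach 30.6.

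Where Lenti-GFP replicate 1 had a peak below its limit, its values can be set beside those of the Lenti-AS libraries. Over these 1001 members −log10 p in Lenti-GFP replicate 1 ran from 5.24 to 13.4 with a median of 11.1. Fold enrichment had a median of 3.26 there, against 4.95 and 4.55 in the Lenti-AS replicates, and it was lower than in both Lenti-AS libraries in 1000 of 1001. The same held for 92.1% of the regions of all 4 lists, and the rule had taken only members whose peak in this control was weak. The −log10 p was lower than in both in 819 (81.8%), against 43.5% of the regions of all 4 lists, on the measure that the rule itself used. A gap of nearly the same size was present at regions open everywhere. The ratio of fold enrichment in Lenti-GFP replicate 1 to Lenti-AS replicate 1 had a median of 0.663 in these members and 0.694 in the regions of all 4 lists. Against Lenti-AS replicate 2 the medians were 0.732 and 0.784. For summit pileup over the floor the ratios were 0.542 in members and 0.563 in shared regions against Lenti-AS replicate 1, and 0.628 and 0.697 against Lenti-AS replicate 2. The members thus sat slightly below the shared regions in all 4 comparisons, on values that the rule had partly fixed.

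The 244 members with no deposited Lenti-GFP peak were about as strong as the rest. Their −log10 p had medians of 14.1 and 14.0 in Lenti-AS replicates 1 and 2, and their fold enrichment had medians of 4.80 and 4.33. They were narrower, with a median of 330 bp against 404 bp for those with a Lenti-GFP replicate 1 peak below the limit. They also lay nearer to regions open in all 4 lists, at a median of 7.42 kb.

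The strongest members are the 10 with the highest mean percentile over the Lenti-AS libraries, and coordinates are in rat assembly rn6. The first lay on chromosome 6 from 135474465 to 135474711 and had no deposited peak in either Lenti-GFP library. It held 73 overlapping reads at its summit in Lenti-AS replicate 1 and 65 in replicate 2, with fold enrichments of 7.05 and 5.58 and −log10 p of 39.3 and 29.1. It lay 0.802 kb from a region open in all 4 lists, with summits 15 bp apart between the replicates.

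The second, on chromosome 8 from 116331544 to 116332031, had a peak in 3 libraries. Its summit pileup was 42.5 and 34.9 times the floor in the Lenti-AS replicates and 16.8 times in Lenti-GFP replicate 1, over local backgrounds of 10.6, 9.34 and 7.53 times the floor. Its fold enrichment was 3.88, 3.64 and 2.20. The third, on chromosome 10 from 109418441 to 109418995, had summits of 59.2, 41.0 and 20.2 times the floor and −log10 p of 30.6, 23.4 and 12.1 in these 3 libraries in turn. The fourth, on chromosome 12 from 22638721 to 22639115, had summits of 35.3, 31.4 and 15.4 times the floor and −log10 p of 23.8, 29.0 and 13.4, the last just under the limit of 13.4 for that list. In all 3 regions the summit over the floor was lower in Lenti-GFP replicate 1 than in both Lenti-AS libraries. It was also lower there at nearly all regions of all 4 lists, at 96.3% against Lenti-AS replicate 1 and 94.5% against Lenti-AS replicate 2.

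The next 4 were smaller peaks on lower background. Chromosome 1 from 95024475 to 95025149 had fold enrichments of 7.35, 6.27 and 2.97 in the Lenti-AS replicates and Lenti-GFP replicate 1, and chromosome 5 from 14579713 to 14580124 had 8.55, 6.93 and 3.32. The region on chromosome 5 was also isolated, since the nearest other member lay 7090 kb away and only 7 regions of all 4 lists lay within 500 kb. Chromosome 7 from 98079295 to 98079665 had fold enrichments of 6.21, 5.66 and 3.18. Chromosome 10 from 55868204 to 55868727 had 6.26, 4.59 and 3.12, and another member lay 19.7 kb away.

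The last 2 of the 10 had no Lenti-GFP peak. On chromosome 13 from 99004830 to 99005094 the local background was at the floor in both Lenti-AS libraries, so that pileups of only 28 and 33 gave fold enrichments of 9.37 and 8.94. It lay 42.2 kb from the nearest region of all 4 lists. On chromosome 8 from 71367459 to 71367682 the pileups were 50 and 54, the fold enrichments 5.82 and 4.82, and a region open in all 4 lists lay 0.169 kb away, the shortest such distance of any member. The weakest member, on chromosome 15 from 51709908 to 51710325, had −log10 p of 10.8 and 11.4 in the Lenti-AS libraries and 11.4 in Lenti-GFP replicate 1. Its −log10 p in the control library was thus no lower than in the treated ones. Its fold enrichment was lower there, at 3.17 against 3.91 and 3.64. Its summit over the floor was also lower, at 9.01 against 14.3 and 12.8.

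Regions at the limits show how narrow the choice was. On chromosome 7 from 51674671 to 51674961 Lenti-GFP replicate 1 had a −log10 p of 13.3939, which tied with the weakest peak kept and was removed by chromosome order. The region was thus a member, with 12.8 and 12.4 in the Lenti-AS libraries. On chromosome 6 from 45483756 to 45484280 the same library had 13.3956, the region was kept in its list, and it was therefore no member with 12.6 and 11.6 in the Lenti-AS libraries. At the other limit, chromosome 18 from 31653014 to 31653313 was no member with 11.283 in Lenti-AS replicate 2, and chromosome 14 from 104840434 to 104841209 was one with 11.2925.

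Members were narrow. The merged width had a median of 392 bp and ran from 216 to 1455 bp, against 524 bp for Lenti-GFP-only regions and 415 to 487 bp for the mixed pairs. Both mixed pairs with Lenti-GFP replicate 1 had 487 bp, and those without it had 415 and 420 bp. This library also had the widest deposited peaks, at a median of 559 bp against 481 to 495 bp in the others. Its part in the widths was not tested. The peaks themselves had median widths of 324 bp in Lenti-AS replicate 1 and 346 bp in replicate 2, and 1 member held 2 peaks of one list. Summits of the replicates lay close together, at a median of 32 bp, and within 50 bp in 808 members (64.9%). This distance was 57 bp in Lenti-GFP-only regions and 39 to 61 bp in the mixed pairs. In regions of all 4 lists the summits of the Lenti-AS pair were also the closest, at 25 bp against 31 to 35 bp for the other pairs.

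Most members lay apart from the open regions common to all libraries, but not far from them. The gap to the nearest region of all 4 lists had a median of 10.8 kb and ran from 0.169 to 435 kb. It was under 1 kb for 88 members (7.07%) and over 100 kb for 45 (3.61%). Lenti-GFP-only regions lay farther away, at a median of 31.1 kb, and the mixed pairs at 12.7 to 27.9 kb. Mixed pairs with Lenti-GFP replicate 1 lay at 22.9 and 27.9 kb, and those without it at 12.7 and 17.7 kb. The part of this library in the distances was not tested. The share under 1 kb was 2.88% for Lenti-GFP-only regions. It was 9.33% for Lenti-GFP replicate 2 with Lenti-AS replicate 1, more than for members, and 2.90% to 4.81% for the other mixed pairs. The nearest region of any kind was one of all 4 lists for 793 members (63.7%), which make up 61.5% of all merged regions. It was another member for 32 and a Lenti-GFP-only region for 16. The nearest peak of Lenti-GFP replicate 2, the library that had none at the members, lay at a median of 8.56 kb and under 1 kb for 91 members.

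**Figure D3:**
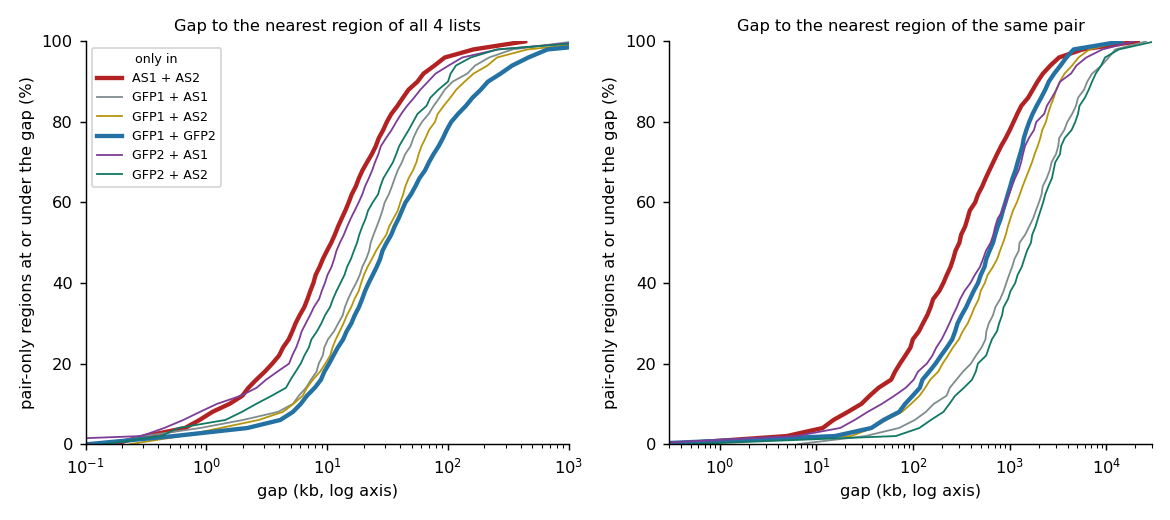
Share of regions (vertical, percent) whose gap to the nearest region of all 4 lists (left) or to the nearest region of the same pair (right) was at or under the value on the horizontal log axis, for each of the 6 library pairs. The Lenti-AS pair lies farthest left in both panels at the middle of the vertical axis, with medians of 10.8 kb and 302 kb.

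Members were more frequent where open chromatin was dense. The number of regions of all 4 lists within 500 kb had a median of 19 around members, 18 around those shared regions themselves, 17 around all merged regions and 11 around Lenti-GFP-only regions. When all merged regions were ordered by this density and split into 4 classes of similar size, members made up 1.94% of the sparsest class (0 to 11 neighbours), 2.76% of the next (12 to 17), 3.49% of the next (18 to 25) and 3.41% of the densest (26 to 65). The Lenti-GFP-only share fell over the same classes from 4.88% to 2.32%, 1.64% and 0.900%. The 244 members without any deposited Lenti-GFP peak also became more frequent, from 0.283% to 0.566%, 0.658% and 0.790%.

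The mixed pairs went both ways. Of these, Lenti-GFP replicate 2 with Lenti-AS replicate 1 rose from 1.28% to 2.19%, as the members did. The other 3 fell, from 3.06% to 0.750% for Lenti-GFP replicate 1 with Lenti-AS replicate 2, from 1.35% to 0.850% for Lenti-GFP replicate 1 with Lenti-AS replicate 1, and from 1.16% to 0.870% for Lenti-GFP replicate 2 with Lenti-AS replicate 2. All 3 pairs that held Lenti-GFP replicate 1 fell, and this library had the highest floor and the lowest signal over it. Its part in the result was not tested.

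**Figure D4:**
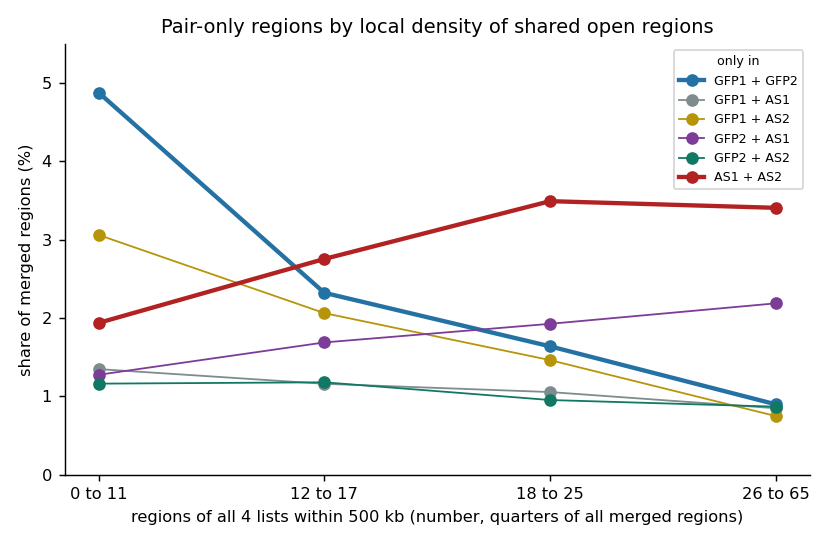
Share of merged regions (vertical, percent) that were found only in each of the 6 library pairs, by the number of regions of all 4 lists within 500 kb (horizontal, 4 classes). The Lenti-AS pair rises from 1.94% to 3.41% and the Lenti-GFP pair falls from 4.88% to 0.900%, while 1 mixed pair rises and 3 fall.

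Every chromosome from 1 to 20 held members. Chromosome 1, the longest, held the most, with 142, and chromosome 10 followed with 99. As a share of a chromosome's merged regions, members ranged from 2.31% on chromosome 16 to 3.74% on chromosome 19, and Lenti-GFP-only regions from 1.69% on chromosome 12 to 3.31% on chromosome 11. Over all 20 chromosomes the shares were 2.86% and 2.55%, the members being the larger set, and the share of members was the higher on 14. On chromosome 12 there were 42 members (3.37%) and 21 Lenti-GFP-only regions, on chromosome 20 there were 43 (3.57%) and 22, and on chromosome 10 there were 99 (3.27%) and 52. On chromosome 2 the order was turned, with 81 members (2.33%) and 112 Lenti-GFP-only regions (3.23%).

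The start of chromosome 20 carries the major histocompatibility complex of the rat, whose genes present antigens to T cells. Its first 6 Mb held 213 merged regions, of which 142 were in all 4 lists, 9 were members (4.23%) and 2 were Lenti-GFP-only (0.939%). The strongest of the 9 in Lenti-AS replicate 1 lay from 3920679 to 3920933, with fold enrichments of 11.3 and 7.10, pileups of 34 and 26 on background at the floor, and no Lenti-GFP peak. Another without a Lenti-GFP peak lay from 5414344 to 5414611, with fold enrichments of 8.72 and 8.94 and pileups of 26 and 33. The member from 5531902 to 5532205 had a peak below the limit in Lenti-GFP replicate 1, with a −log10 p of 13.1 there against 13.7 and 12.3 in Lenti-AS replicates 1 and 2, summits of 40.6 and 30.7 times the floor in the Lenti-AS libraries and 20.4 times in that control, and fold enrichments of 2.50, 2.35 and 2.25. In all, 6 of the 9 had a peak below the limit in Lenti-GFP replicate 1, and counts of this size are a description of one stretch.

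Members lay closer to each other than the regions of any other pair did. The nearest other member was at a median of 302 kb, against 673 kb for Lenti-GFP-only regions and 635 to 1660 kb for the mixed pairs. It lay under 1 Mb away for 969 members (77.8%) and for 709 Lenti-GFP-only regions (63.7%). Sets of more regions have smaller gaps, and the Lenti-AS pair was the largest set. Counted in windows of 1 Mb, 784 of 2395 windows with a merged region held a member, 861 held a Lenti-GFP-only region and 293 held both. At least 4 members fell in 34 windows, up to 7 in one, and at least 4 Lenti-GFP-only regions fell in 6 windows, up to 5 in one.

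A gathering was defined as at least 4 regions of a set with gaps of at most 500 kb between neighbours. Members formed 51 gatherings on 19 chromosomes, with 248 of 1245 members (19.9%) in them and 9 in the largest. The count rests on the definition, with 48 members at gaps of at most 200 kb, 539 at gaps of at most 1 Mb, 74 in gatherings of at least 6 and 4 when only the 244 members without a deposited Lenti-GFP peak were used. With 1 library left out the set grew and the count was 1219 to 1899. They covered 37.2 Mb, with a median span of 646 kb, and 31 of the 51 had exactly 4 members. Within them members were 13.8% of the 1799 merged regions, a share raised by the definition. Lenti-GFP-only regions formed 14 gatherings with 60 regions (5.39%), and the mixed pairs had 0.875% to 9.07% of their regions in gatherings. Inside the gatherings of members lay 15 Lenti-GFP-only regions, 0.834% of the merged regions there against 2.55% on all chromosomes, and in the 2 denser classes above that share was 1.64% and 0.900%. Inside the gatherings of Lenti-GFP-only regions lay 5 members, 2.27% of 220 merged regions, near the 2.86% on all chromosomes.

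Since larger sets gather more easily, the pairs were also compared at equal size. With the strongest 1113 members, which is the number of Lenti-GFP-only regions, 184 (16.5%) lay in gatherings against 60 (5.39%). With the strongest 457 of each pair, which is the size of the smallest, 18 members (3.94%) did and 4 to 13 regions of the other pairs. At the smaller size the member count was the highest of the 6 pairs but rested on few regions, and at the larger size only these 2 sets could be compared.

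Gathered members were similar to the others by −log10 p but ranked lower by fold enrichment. Their mean percentile by −log10 p had a median of 18.3 against 16.6 for the other members. By fold enrichment the median percentile was 14.6 against 20.1 in Lenti-AS replicate 1 and 13.2 against 19.4 in replicate 2. Summit pileup had medians of 35 against 30 and 39 against 35 in these libraries. Local background had medians of 6.09 against 5.04 and 8.32 against 6.72. A Lenti-GFP replicate 1 peak below the limit was present at 79.0% of gathered and 80.7% of other members. More shared regions lay within 500 kb of them, at a median of 24.5 against 18.

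The gatherings with the most members show the pattern along the chromosome. On chromosome 18 from 55868940 to 57267946, a span of 1399 kb, 9 members lay among 75 merged regions, 46 of them in all 4 lists and 1 Lenti-GFP-only. Their mean percentiles ran from 2.41 to 35.0. The sixth of them, from 56513240 to 56513672, had the highest fold enrichment, with 6.67 and 5.30 in Lenti-AS replicates 1 and 2 and 3.03 in Lenti-GFP replicate 1. The second, from 56014193 to 56014496, was the only one of the 9 with no Lenti-GFP peak, with fold enrichments of 3.58 and 3.01.

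Chromosome 10 held 2 of the 5. From 84962632 to 86878809, over 1916 kb, 9 members lay among 120 merged regions, 75 of them in all 4 lists and 1 Lenti-GFP-only. The highest fold enrichment there was at 85326096 to 85326572, with 5.43, 6.52 and 4.33 in the same order of libraries. From 81828773 to 83823043, over 1994 kb, 8 members lay among 83 regions, with 53 in all 4 lists and 2 Lenti-GFP-only. One of these 8, from 81912096 to 81912470, lay 0.266 kb from a region of all 4 lists and had fold enrichments of 2.74, 2.30 and 1.96.

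The other 2 held no Lenti-GFP-only region. On chromosome 19 from 51334127 to 52436270, over 1102 kb, 8 of 40 merged regions were members and 21 were in all 4 lists. Fold enrichment over these 8 lay between 3.56 and 5.35 in Lenti-AS replicate 1, and 7 of them had a peak below the limit in Lenti-GFP replicate 1. On chromosome 6 from 146624058 to 147289894, over 666 kb, 7 of 30 merged regions were members (23.3%) and 14 were in all 4 lists. Its seventh member, from 147289557 to 147289894, had fold enrichments of 7.76 and 6.72 in the Lenti-AS libraries and 3.89 in Lenti-GFP replicate 1. In each of the 5 gatherings most members had such a control peak below the limit, 35 of 41 in all, which was not always lower in −log10 p than the Lenti-AS peaks.

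Near members, regions found in 3 lists more often lacked a Lenti-GFP list than a Lenti-AS list. Of 866 regions found in 3 lists within 100 kb of a member, 592 (68.4%) lacked a Lenti-GFP list, 319 of them replicate 1 and 273 replicate 2. Over all 4686 regions found in 3 lists this share was 54.4%, and within 100 kb of Lenti-GFP-only regions it was 261 of 506 (51.6%). Absence was read here from the same shortened lists that chose the members, with unequal limits. A region lacking Lenti-GFP replicate 1 may thus hold a removed peak there. The comparison was not matched for density, and the mixed pairs were not included. Nearby regions are not independent of the members, since they share libraries and local background, and no test was made. The shares are therefore no support for the members.

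The regions open in all 4 lists that flank members were not themselves chosen by group, but they lie beside regions that were, and share local background with them. Their strength is therefore a description and no independent test of the members. The 2310 shared regions nearest to a member on either side had median −log10 p percentiles of 48.4 and 48.6 in Lenti-GFP replicates 1 and 2, and of 50.9 and 50.4 in the Lenti-AS replicates. Here percentiles were taken among the regions of all 4 lists, so 50 is the middle. By this measure both Lenti-AS libraries stood above both Lenti-GFP libraries, at 50.7 ± 0.353 against 48.5 ± 0.109 (SD, n = 2 each), a difference of 2.17 percentile points. The exact two-sided permutation test over the 4 libraries gave p = 0.333, the smallest that 2 against 2 libraries can give, so the design could not reach 0.05.

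Region by region, both Lenti-AS percentiles lay above both Lenti-GFP percentiles at 608 flanking regions (26.3%), against 21.6% of all regions of 4 lists. Both lay below at 383 (16.6%), against 20.3%. Around Lenti-GFP-only regions the direction was opposite. Their 1993 flanking shared regions had a difference of -4.46 points, with 15.2% above and 26.8% below. Around the mixed pairs the difference ran from -3.87 to -0.194. By −log10 p the flanks of members were thus the only ones of the 6 pairs with a positive difference between the groups' library medians. Region by region, flanks of Lenti-GFP replicate 2 with Lenti-AS replicate 1 also had more above than below, 21.3% against 19.3%. By the other measures given next, members were not the only pair with a positive difference.

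The size of the shift depended on the measure. Ranked by fold enrichment, the flanks of members differed by 0.947 points, with 20.8% above against 19.7% of all regions of 4 lists and 17.4% below against 18.5%. These shares were near the background. By fold enrichment the flanks of Lenti-GFP-only regions had a difference of -1.79 points, opposite in sign to that of members, although region by region 21.7% lay above and 19.4% below. Flanks of the mixed pair of Lenti-GFP replicate 2 with Lenti-AS replicate 2 had a larger positive difference by fold enrichment, 1.84 points, than those of members. Ranked by summit pileup, flanks of members differed by 1.76 points, with 28.4% above against 23.4% of all regions of 4 lists and 17.6% below against 22.8%. Flanks of Lenti-GFP-only regions differed by -3.95 points by pileup, with 15.3% above and 32.7% below. The mixed pair of Lenti-GFP replicate 2 with Lenti-AS replicate 1 was also positive by pileup, at 0.345 points. Around the 244 members without a deposited Lenti-GFP peak the difference by −log10 p was 3.81 points with 27.7% above, and around gathered members it was 2.76 points with 31.0% above and 11.3% below. By pileup these differences were 1.33 and 1.18 points, below the 1.76 points of all members, and by fold enrichment they were 2.26 and 2.53 points. Counted per region, pileup gave the opposite order, with 30.2% and 35.9% above against 28.4% around all members. The shares below were smaller in both sets than the 17.6% around all members. By −log10 p around gathered members Lenti-GFP replicate 2, at 51.7, stood above Lenti-AS replicate 2, at 51.1.

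By −log10 p the share of shared regions with both Lenti-AS percentiles above both Lenti-GFP percentiles was highest for the shared regions nearest to a member, at 26.3%. Over the first 10 shared regions on either side it ran from 21.4% to 26.3% with a median of 23.9%, and over the regions from the eleventh to the fiftieth from 19.9% to 23.8% with a median of 22.3%, against 21.6% of all shared regions. Around Lenti-GFP-only regions the medians were 17.9% and 20.1%. By −log10 p both medians were thus nearer to the share of all shared regions at the farther orders, with overlap between near and far orders. By fold enrichment the medians around Lenti-GFP-only regions were 22.4% and 21.2%, above the 19.7% of all shared regions, and members ran from 18.2% to 21.3% at the first 10 and had a median of 19.5% farther out.

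**Figure D5:**
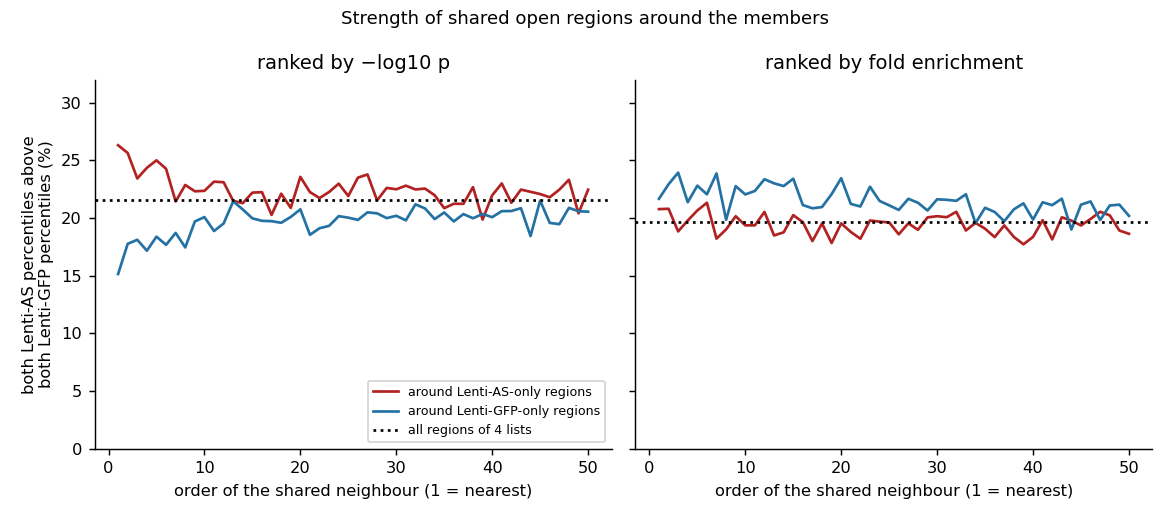
Share of shared regions (vertical, percent) with both Lenti-AS percentiles above both Lenti-GFP percentiles, by their order from the nearest to the fiftieth on either side (horizontal), around the members and around Lenti-GFP-only regions, with the share over all regions of 4 lists dotted. By −log10 p (left) the sets start at 26.3% and 15.2% and lie nearer to the dotted line farther out, and by fold enrichment (right) they start at 20.8% and 21.7%.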

How the data were processed

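ATAC-seq was done on 4 libraries, Lenti-GFP and Lenti-AS with 2 replicates each. Per the study's methods and the submitters' processing notes, the authors aligned reads to rn6 with Bowtie2, removed duplicates with Picard and called peaks per library with MACS2 (versions not given in the sources used here). The deposited narrowPeak lists give each peak's position and summit, a fold enrichment over local background (ratio), a −log10 p, a −log10 q and a display score. Lists were deposited per library, with no replicates pooled.

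Lists were ranked by −log10 p, shortened to 35646 rows, and merged at an overlap of at least 1 bp. This was done with Python 3.11.15, numpy 2.4.6 and pandas 2.3.3, as was the enumeration for the exact permutation tests over libraries. Poisson probabilities came from scipy 1.17.1 and the plots from matplotlib 3.10.9. Summit pileup and local background were recovered from fold enrichment and −log10 p under the caller's Poisson model, within 0.001 for 100% of peaks in each list. Distances are gaps in base pairs between region ends. Coordinates count from 1. The steps were tested on simulated data. Every one of the 4 lists matched a labelled sample, and 0 columns were left unmapped.

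The members, the 500 kb gap, the minimum of 4 members and the first 6 Mb of chromosome 20 were chosen with earlier results of these data known. Named regions are the 10 members with the highest mean percentile, the weakest member, the 5 gatherings with the most members (ties by the shorter span), the members at the start of chromosome 20 and each chromosome by its share of members. From the larger sets only some are given, chosen after their values were seen, as were those at the limits. With 2 against 2 libraries, the exact p is the share of group assignments with a difference at least as large as the observed one. It rests on these libraries alone and does not measure the spread between them. Genes, base composition and AP-1 motifs at the members were not analysed here, for want of an rn6 genome and annotation. Alternatives were other limits and list lengths, another overlap, other measures of strength, other distances, each library left out in turn, and a replicate block.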

Additional observations from a re-analysis of the deposited data

How the results depend on the processing

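The number of Lenti-AS-only regions was 1194 with lists shortened by fold enrichment, 1049 with the deposited lists, 1048 and 831 with 30000 and 25000 rows, and 1411 with a reciprocal overlap of 50%, all within 1.5 times of 1245. It was 244 when a deposited Lenti-GFP peak of any strength removed a member, and 2473 to 3148 with 1 library left out, where fewer lists have to lack or hold a region. Every library moved it by over 1.5 times (2610 without Lenti-GFP replicate 1, 2473 without Lenti-GFP replicate 2, 2714 without Lenti-AS replicate 1, 3148 without Lenti-AS replicate 2). The median strength percentile was 19.0 by fold enrichment, 17.3 in the 244 members and 11.5 to 19.5 with 1 library left out. The median width was 340.5 bp as the mean of the 2 peaks, 330 bp in the 244 members and 308 to 428 bp with 1 library left out. The median distance to a region of all 4 lists was 8.48 kb with the deposited lists, 11.4 kb between middles, 7.42 kb for the 244 members and 9.59 to 12.9 kb with 1 library left out. The count in gatherings depended on the definition: 48 with gaps of at most 200 kb, 539 with gaps of at most 1 Mb, 74 with at least 6 members, 202 with the deposited lists, 4 among the 244 members alone, and 1219 to 1899 with 1 library left out, where the set itself was larger. At gaps of 200 kb, 1 Mb and at least 6 members the other pairs had at most 17, 186 and 12.

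The difference in strength of shared neighbours by −log10 p was 2.17. It was 0.947 by fold enrichment, 1.76 by pileup, 1.52 for the 5 nearest shared regions on each side, 3.48 within 50 kb and 3.81 around the 244 members. With 1 library left out it lay between 1.92 and 2.42, where the sign could not turn since both Lenti-AS medians lay above both Lenti-GFP medians. With a replicate block it was 2.17 (exact permutation p = 0.5, the smallest 2 pairs allow), with differences of 2.49 and 1.84 within pairs 1 and 2. Same-numbered libraries did not deviate together (correlation of deviations over shared regions -0.240), so the numbers were not taken to pair them. With 2 libraries per group, crossed libraries must then have a positive correlation of the same size. The crossed mixed pairs also held more regions, 827 and 761 against 487 and 457. What the crossed libraries may share is not given by the labels, and crossed pairing gave the same p of 0.5. The alternatives with the 244 members, the crossed pairing, the gatherings of the deposited lists, the equal set sizes and part of the left-out libraries were chosen after seeing the data. Lists without read totals limit all values of presence and strength, since a peak below the caller's threshold and a closed region cannot be told apart.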
